A study of Mus musculus with 2 samples.

Results

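The genes described here are 8 secreted antagonists of Wnt signalling that stromal cells of muscle make, namely Sfrp1, Sfrp2, Sfrp4, Sfrp5, Frzb, Wif1, Dkk2 and Dkk3. They were chosen by symbol, and each had its own row among the 24984 genes of both libraries. The study asked how loss of the transcription factor YY1 in muscle stem cells (MuSCs) changes the other cells of dystrophic muscle. Live mononuclear cells of the hind limb were captured with the 10x Chromium system, and unique molecular identifiers (UMIs) were counted for each gene in each cell. The Ctrl library came from tamoxifen-treated Pax7 CreERT2/R26YFP, Yy1 +/+, mdx mice and the dKO library from tamoxifen-treated mice of the same background with Yy1 f/f. Both groups therefore carried the mdx mutation, which removes dystrophin, and both carried the Cre driver. The Pax7 promoter limits Cre to MuSCs and their descendants, so the stromal cells described here are not the cells that Cre targets. Cells of 3 mice were pooled in each library and cannot be told apart, so each group is 1 sample with no replicate check. Values in brackets give the bounds of a 95% interval, which reflects the error of counting alone, and differences between the libraries carry no test.

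Wnt ligands signal through Frizzled receptors and LRP5 or LRP6, and the canonical branch stabilises beta-catenin. Secreted frizzled-related proteins (Sfrp1, Sfrp2, Sfrp4, Sfrp5 and Frzb, which is also called Sfrp3) carry a Frizzled-like domain and bind Wnt ligands outside the cell, as does Wif1. Dickkopf proteins act at the coreceptor instead: Dkk2 binds LRP5 and LRP6, while Dkk3 is a divergent relative that does not act as a classical LRP6 antagonist. In muscle, fibro-adipogenic progenitors (FAPs) are a mesenchymal source of many such secreted regulators, and Wnt signals act on MuSCs, FAPs and their fibrogenic fate.

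The members lie on 7 chromosomes (GRCm38, gene bounds of GENCODE M21), and only Sfrp2 (chromosome 3, 83766321 to 83774316) and Dkk2 (chromosome 3, 132085292 to 132180304) share one. Windows of 300 bases from RefSeq (GRCm38.p6), from 250 bases before the start to 50 after it, were used for 5 of the 8 members. The windows of 4 of them are shown, of Sfrp2 and Dkk2 because both were higher in dKO in the same FAP subset, and of Wif1 and Sfrp5 because each led a cell class. They are printed 5′ to 3′ along the gene, with capitals for a match to TATAAA on either strand, the only motif found.
Sfrp2, chr3:83766071-83766370, plus strand: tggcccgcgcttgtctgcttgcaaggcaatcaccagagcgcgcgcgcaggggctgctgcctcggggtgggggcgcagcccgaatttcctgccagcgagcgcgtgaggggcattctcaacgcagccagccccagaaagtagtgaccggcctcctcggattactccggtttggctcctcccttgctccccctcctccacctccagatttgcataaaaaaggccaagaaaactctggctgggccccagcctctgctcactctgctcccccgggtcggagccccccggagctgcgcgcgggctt
Dkk2, chr3:132085042-132085341, plus strand: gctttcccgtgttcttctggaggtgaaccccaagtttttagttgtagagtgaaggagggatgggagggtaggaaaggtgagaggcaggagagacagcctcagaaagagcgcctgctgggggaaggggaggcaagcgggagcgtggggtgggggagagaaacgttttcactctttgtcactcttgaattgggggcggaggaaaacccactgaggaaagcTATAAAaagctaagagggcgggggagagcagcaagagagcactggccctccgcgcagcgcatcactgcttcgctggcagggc
Wif1, chr10:121033754-121034053, plus strand: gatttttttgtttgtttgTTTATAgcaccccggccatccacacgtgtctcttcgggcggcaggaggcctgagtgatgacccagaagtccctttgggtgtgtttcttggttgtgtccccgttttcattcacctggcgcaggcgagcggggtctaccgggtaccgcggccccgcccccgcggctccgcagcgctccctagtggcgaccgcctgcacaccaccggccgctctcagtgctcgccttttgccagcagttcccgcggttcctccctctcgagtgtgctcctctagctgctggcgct
Sfrp5, chr19:42202203-42202502, minus strand: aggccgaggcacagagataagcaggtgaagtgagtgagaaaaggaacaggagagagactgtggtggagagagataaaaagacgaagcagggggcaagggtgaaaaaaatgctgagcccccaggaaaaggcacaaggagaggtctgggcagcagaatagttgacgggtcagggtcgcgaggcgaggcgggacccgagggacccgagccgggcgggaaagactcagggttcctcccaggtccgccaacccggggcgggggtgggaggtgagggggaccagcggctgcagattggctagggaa
The Dkk2 match began 32 bases before the start, the usual place of a TATA box, and that of Wif1 began 232 bases before it on the other strand. TATAAA occurred in 13.6% of the 32851 RefSeq windows of this length. The YY1 core CCATNTT (16.1% of all windows, both strands) and the TCF/LEF core CTTTGAT (3.73%) occurred in none of the 5 members' windows, Frzb included. All 5 windows held more CpG than the median of 7 over all windows, with 11 in Dkk2 (58.6% of windows held fewer), 15 in Sfrp5, 20 in Frzb, 22 in Sfrp2 and 25 in Wif1 (81.6%). These are letter matches in a short window and say nothing of whether a factor bound there.

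The Ctrl library held 4527 cells with 45556596 UMIs and the dKO library 3483 cells with 33815155 UMIs. After a filter of 500 genes and removal of likely doublets, 4010 and 3079 cells remained, with medians of 7880 and 7806 UMIs, and 7 cell barcodes occurred in both libraries. Cells were clustered without the members or other Wnt genes and named by markers. In MuSC-like cells, Yy1 had 364 UMIs in 116 Ctrl cells (161 CPM, counts scaled to the UMI total of the class) and 3 UMIs in 30 dKO cells (4.85 CPM), while in FAP-like cells it stood at 121 and 132 CPM. FAP-like cells numbered 1088 in Ctrl and 1143 in dKO and had nearly equal depth, with medians of 11848.5 and 11897 UMIs.

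Each member had 1 main source among the cell classes. FAP-like cells held most UMIs of Sfrp1, with 92.9% of all Sfrp1 UMIs of the Ctrl library and 97.7% of those of the dKO library. The matching shares were 80.6% and 90.4% for Sfrp2, 84.9% and 93.3% for Dkk2, and 66.3% and 66.8% for Dkk3. For Sfrp4 they were 95.8% and 97.2%. Wif1 belonged to tenocyte-like cells, which held 97.9% and 98.6% of its UMIs, and Sfrp5 to a small group of perineurial cell-like cells, which held 87.8% and 99.1%. Frzb was near the limit of detection, with 33 UMIs in the whole Ctrl library and 22 in the dKO library, most of them in FAP-like cells.

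**Figure D1:**
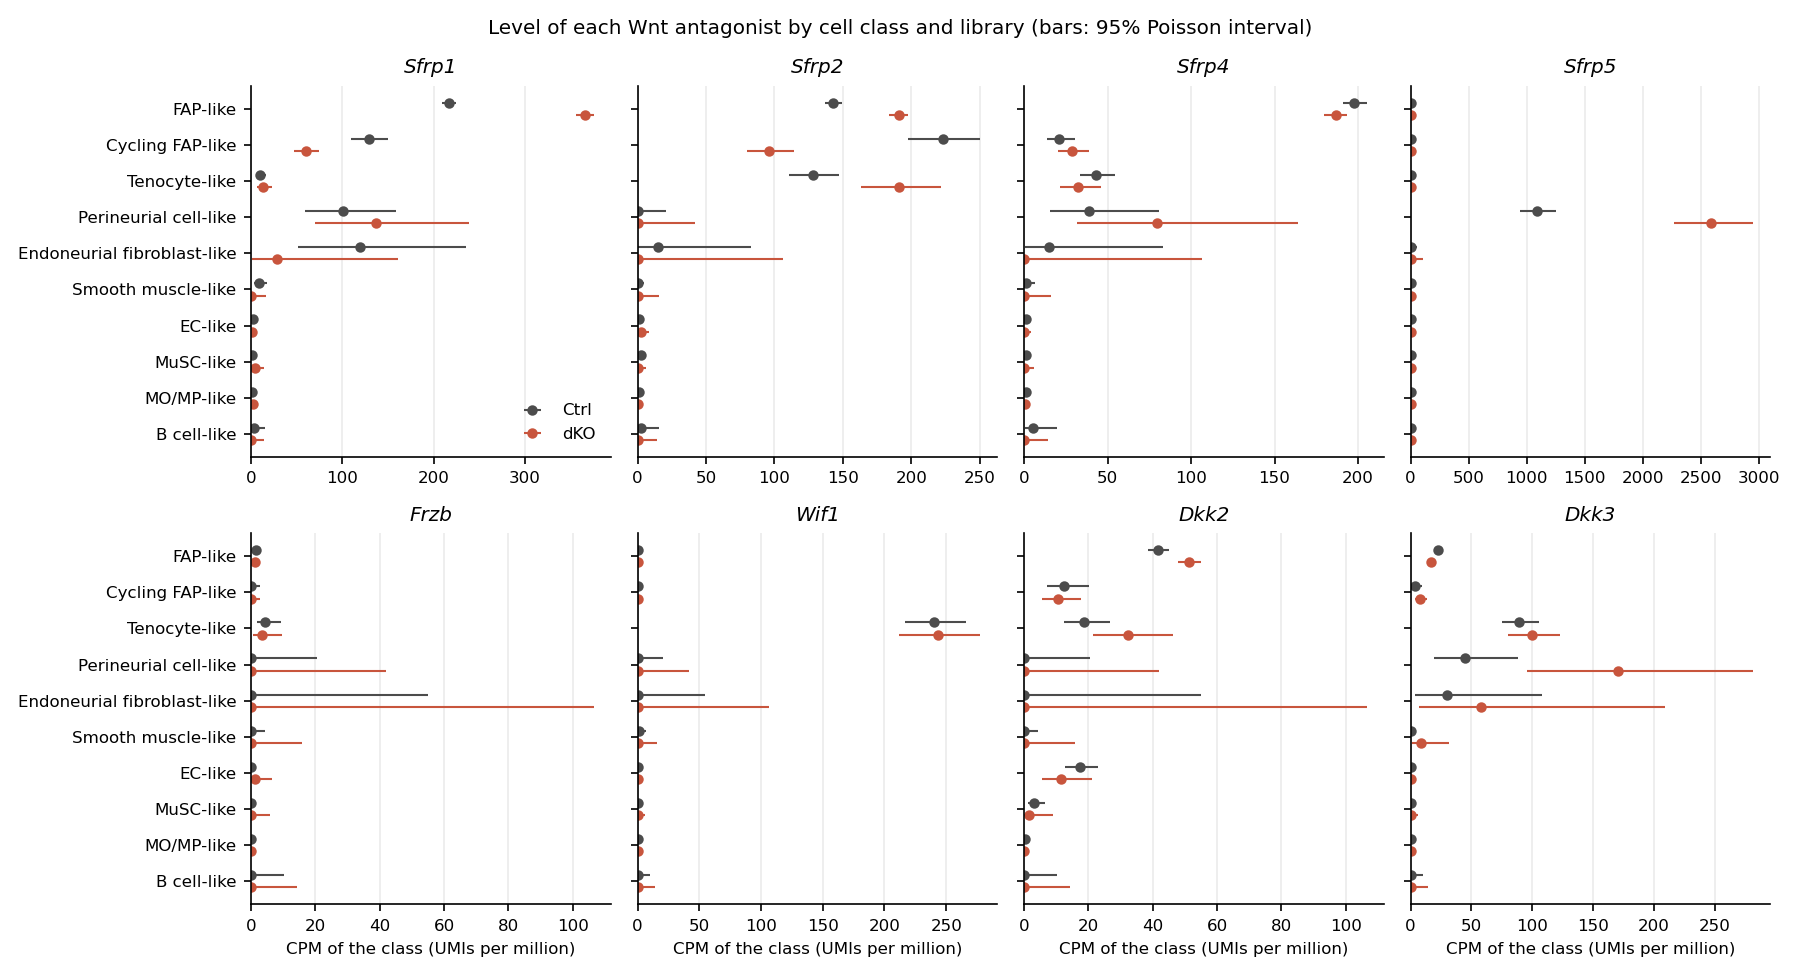
Levels of the 8 members (CPM, linear axis with its own range for each gene) in 10 cell classes, with a point for each library and bars for the 95% counting interval. Sfrp1, Sfrp2, Sfrp4 and Dkk2 are high in FAP-like cells, Wif1 in tenocyte-like cells (240 and 243 CPM) and Sfrp5 in perineurial cell-like cells (1089 and 2592 CPM).

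The order of the classes differed from gene to gene. Sfrp1 in Ctrl was highest in FAP-like cells (217 CPM), followed by cycling FAP-like cells (129 CPM), endoneurial fibroblast-like cells (119 CPM) and perineurial cell-like cells (101 CPM). The last 3 could not be separated, since their intervals overlapped, and that of the endoneurial fibroblast-like cells (51.5 to 235) reached the FAP-like level, while tenocyte-like cells stood far below at 9.64 CPM. Sfrp2 in Ctrl was highest in cycling FAP-like cells (223 CPM), then FAP-like cells (143 CPM) and tenocyte-like cells (128 CPM), the latter pair with overlapping intervals. However, a single cell held 146 of the 285 Sfrp2 UMIs of the 40 Ctrl cycling FAP-like cells (51.2%). The top place of that class drew mainly on this cell, and the order without it was not tested. In dKO, FAP-like (191 CPM) and tenocyte-like cells (191 CPM) were level and cycling FAP-like cells stood at 95.9 CPM. The Sfrp2 order thus differed between the libraries, but the Ctrl order leaned on that single cell. Dkk3 was higher in tenocyte-like cells, with 89.3 CPM in Ctrl and 99.9 CPM in dKO, than in FAP-like cells, with 22.4 and 16.9 CPM. Dkk2 was also seen in endothelial cells (ECs), with 46 UMIs (17.3 CPM) in Ctrl EC-like cells and 10 UMIs (11.5 CPM) in dKO, and its EC and tenocyte-like levels overlapped in Ctrl. In monocyte/macrophage-like (MO/MP-like) cells no member passed 1.86 CPM in either library. UMIs were counted at one end of the transcript, so levels are compared between cells for a gene and not between genes.

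In FAP-like cells, Sfrp1 was higher in dKO, and it was the member with the largest difference that rested on many UMIs. Ctrl cells held 3210 Sfrp1 UMIs, a level of 217 CPM (209.6 to 225), and dKO cells 5585 UMIs, or 365 CPM (356 to 375). The ratio of dKO to Ctrl was 1.68 (1.61 to 1.76). Detection of Sfrp1 went from 52.8% of the cells in Ctrl (49.7 to 55.8) to 63.9% in dKO (61.0 to 66.7), and from 25.3% to 37.2% when each cell was thinned to 2000 UMIs, which kept 1024 and 1089 cells. In MO/MP-like cells, which should lack the gene and had medians of 7769 and 6816 UMIs, the share with a UMI was 0.988% and 1.41%, or 0.0787% and 0.688% after thinning. The difference lay in cells with many UMIs as well as in detection: cells with more than 20 Sfrp1 UMIs made up 1.84% of Ctrl FAP-like cells and 5.16% of dKO FAP-like cells, and those with 6 to 20 made up 12.3% and 20.5%. No single cell carried it, since the ratio was 1.70 (1.62 to 1.78) without the cell with most UMIs of each library.

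Sfrp2, which like Sfrp1 binds Wnt ligands, was also higher in dKO FAP-like cells but by less. Ctrl cells held 2114 UMIs, or 143 CPM (137 to 149), against 2915 UMIs and 191 CPM (184 to 198) in dKO cells, a ratio of 1.33 (1.26 to 1.41). The share of cells with a UMI was 24.9% (22.4 to 27.6) in Ctrl and 32.5% (29.8 to 35.4) in dKO, and 10.4% and 16.8% after thinning. MO/MP-like cells had 0.847% and 0.531%. A single Ctrl cell held 337 Sfrp2 UMIs, 15.9% of the Ctrl total, while the highest dKO cell held 174. Without these cells the ratio was 1.49 (1.41 to 1.59). Sfrp2 UMIs sat in fewer cells than those of Sfrp1: 21 Ctrl and 37 dKO cells held 50% of them, against 70 and 98 cells for Sfrp1. Among cells chosen by a Pdgfra UMI and no UMI of Ptprc, Pecam1, Tnmd or Pax7, in place of clusters, the log2 ratio of Sfrp2 was 0.087, against 0.42 in FAP-like cells.

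Sfrp4, the family member that leads a subset of FAP-like cells described below, had nearly the same level in both libraries. Its 2926 Ctrl UMIs gave 198 CPM (191 to 205) and its 2852 dKO UMIs gave 187 CPM (179.8 to 194), a ratio of 0.943 (0.896 to 0.994). It was detected in 38.9% and 39.8% of cells, and in 19.2% and 18.6% after thinning. Among the dickkopf genes, Dkk2 had 617 UMIs in Ctrl (41.7 CPM) and 784 in dKO (51.3 CPM), a ratio of 1.23 (1.11 to 1.37). Dkk3 pointed the other way, with 332 UMIs (22.4 CPM) and 259 UMIs (16.9 CPM), a ratio of 0.755 (0.639 to 0.891). After thinning, Dkk2 was found in 7.42% and 7.53% of cells and Dkk3 in 4.49% and 3.95%, with overlapping intervals. The other members were almost absent from FAP-like cells. Frzb had 24 and 18 UMIs with a ratio of 0.726 (0.371 to 1.40), Wif1 had 4 and 1, with a ratio of 0.242 (0.00491 to 2.45), and Sfrp5 had 2 and 1, too few for a ratio.

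A gene was counted as different between the libraries when its ratio passed 1.5-fold and its interval left out 1, over genes with at least 20 UMIs in both libraries together. Among 12575 such genes in FAP-like cells, 367 (2.92%) were higher in dKO and 518 (4.12%) were lower, with a median log2 ratio of -0.06. Of the 6 members with 20 UMIs, 1 was higher (Sfrp1, log2 ratio 0.75) and none was lower, and their median log2 ratio was 0.11. Over all classes with 20 cells in each library, 18 pairs of a member and a class had 20 UMIs, of which 1 was higher and 2 were lower, against 5.16% and 4.93% of 90446 pairs of any gene and class. In FAP-like cells the other 5 members lay within 1.5-fold, and the intervals of Dkk3 and Frzb reached past it in the lower direction. Markers of other cells in FAP-like cells were at low levels: the 9 MO/MP markers summed to 47.0 CPM in Ctrl and 38.8 CPM in dKO with 4 higher in dKO, and the 7 EC markers to 13.4 and 5.50 CPM with none higher. The 9 tenocyte markers, several of which FAPs also make, summed to 2247 and 2012 CPM with 4 higher, among them Tnmd at 27.9 and 41.4 CPM. The 6 perineurial markers summed to 24.5 and 46.7 CPM with 1 higher. The 6 neutrophil markers summed to 31.0 and 4.45 CPM with 1 higher, and the 7 myocyte markers to 44.4 and 14.0 CPM with none higher. Of these lists Ly6g alone, in dKO, was at 0, and their part in the members' differences was not tested.

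**Figure D2:**
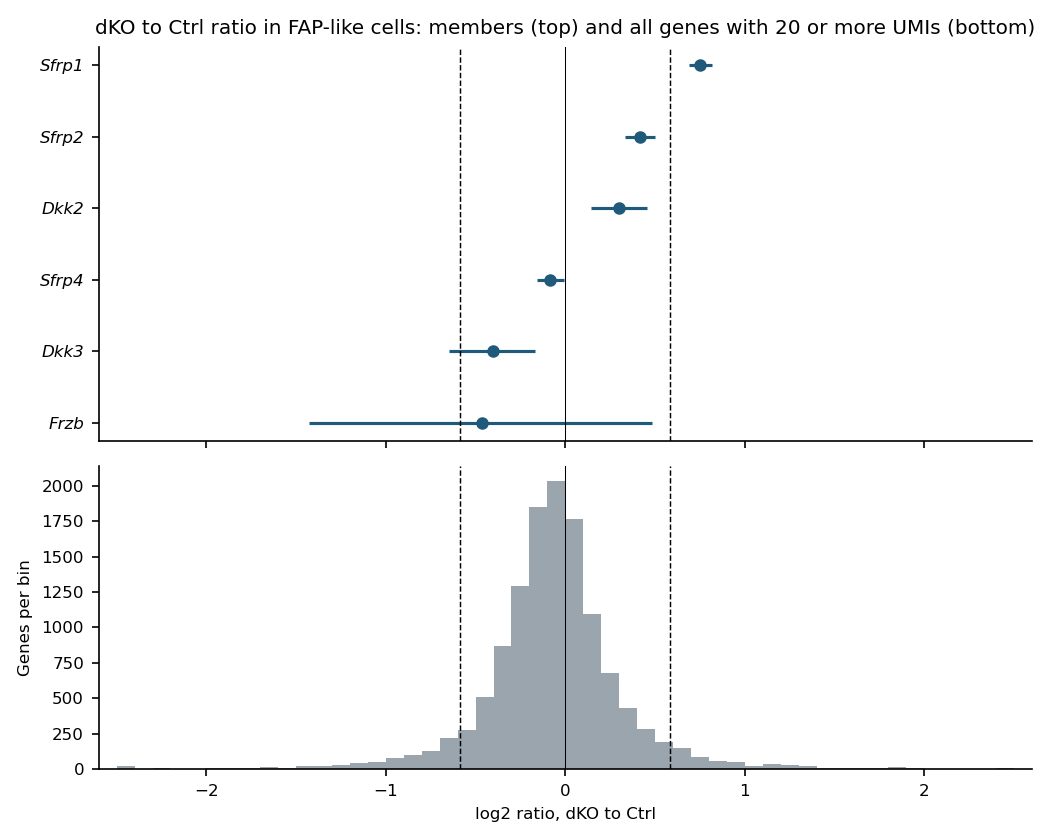
Ratio of dKO to Ctrl in FAP-like cells (log2 scale) for the 6 members with at least 20 UMIs, with 95% counting intervals (top), and the distribution of log2 ratios of all such genes (bottom), with dashed lines at 1.5-fold. Sfrp1 lies past the 1.5-fold line at 0.75, and Sfrp2, Dkk2, Sfrp4 and Dkk3 lie inside it.

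FAP-like cells were split into subsets to see where the members were made. At the resolution used, 6 subsets had at least 20 cells in each library. These were a G0s2+ Cdkn1c+ subset (448 Ctrl and 383 dKO cells), an Acta2+ Rgcc+ subset (196 and 243), a Pi16+ Dpp4+ subset (125 and 145), and a subset with stress genes led by Clu and Socs1 (125 and 131). A Cxcl5+ activated subset with replication genes (93 and 128) and a Fmo2+ Gdf10+ subset of low depth (87 and 102 cells with medians of 2208 and 2405 UMIs) completed them. The G0s2+, Acta2+ and Fmo2+ subsets had no name from the marker lists and are called by their leading genes.

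The order of the subsets differed between the members. Sfrp1 in Ctrl was highest in the G0s2+ Cdkn1c+ subset at 321 CPM and lowest in the Cxcl5+ activated subset at 30.6 CPM, with the stress-gene (200.5 CPM), Acta2+ (193 CPM) and Fmo2+ (182 CPM) subsets in between and not separable from one another. Sfrp4 had another order, with 620.1 CPM in the Fmo2+ Gdf10+ subset, where it was among the 10 leading genes, 416 CPM in the Pi16+ Dpp4+ subset and 19.6 CPM in the Cxcl5+ activated subset. Dkk3 was not detected among 125 Ctrl cells of the Pi16+ Dpp4+ subset, which allows up to 2.56 CPM by 3 counts, and stood at 61.7 CPM in the Fmo2+ subset. Dkk2 stood at 53.1 CPM in the G0s2+ subset, with an interval that overlapped those of the Pi16+ Dpp4+ (44.5 CPM), Acta2+ (40.7 CPM) and stress-gene (37.1 CPM) subsets, and was lowest in the Cxcl5+ activated subset at 15.0 CPM. The Cxcl5+ activated subset thus had the lowest Ctrl level of Sfrp1, Sfrp2, Sfrp4 and Dkk2, though its intervals overlapped that of the stress-gene subset for Sfrp2 (53.3 CPM) and that of the Fmo2+ subset for Dkk2 (18.5 CPM), and its cells were the deepest, with medians of 21546 and 20481 UMIs.

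Between the libraries, 28 pairs of a member and a subset had at least 20 UMIs. Of these, 7 were higher and 2 lower in dKO, while over all genes 3.9% of 52648 such pairs were higher and 4.85% lower. With median-ratio scaling 9 and 2 of the members' pairs were higher and lower, against 4.82% and 3.76% of all pairs. In the G0s2+ Cdkn1c+ subset Sfrp1 stood at 321 CPM in Ctrl and 658 CPM in dKO, a ratio of 2.05 (1.93 to 2.17). In the same subset Sfrp2 stood at 158 and 298 CPM (ratio 1.88, 1.73 to 2.05) and Dkk2 at 53.1 and 89.7 CPM (ratio 1.69, 1.45 to 1.96). This was the subset with the most members higher in dKO, and its Sfrp4 (164 and 178 CPM) and Dkk3 (26.4 and 24.5 CPM) were level. Sfrp1 was also higher in the stress-gene subset, at 200.5 and 397 CPM (ratio 1.98, 1.73 to 2.27), and in the Acta2+ subset, at 193 and 328 CPM (ratio 1.70, 1.55 to 1.87). In the Cxcl5+ activated subset with replication genes it stood at 30.6 and 29.6 CPM, and at 32.3 and 29.6 CPM in the matching subset of a finer clustering. Other subsets with that name were higher in dKO, at 128 and 208 CPM in a coarser clustering (ratio 1.62, 1.49 to 1.78) and at 173 and 351 CPM in the finer one (ratio 2.03, 1.82 to 2.26). Sfrp2 was higher in the stress-gene subset, at 53.3 and 158 CPM (ratio 2.97, 2.32 to 3.82), and in the Fmo2+ subset, at 133 and 299.8 CPM (ratio 2.26, 1.57 to 3.30). As the mean of the cells' own CPM, the log2 ratio in the Fmo2+ subset was 0.53 against 1.18, inside the 1.5-fold line. By that measure 6 pairs were higher and 3 lower, against 3.69% and 4.68% of all pairs.

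The lower pairs were both of dickkopf genes. Dkk2 in the Cxcl5+ activated subset had 30 UMIs in Ctrl (15.0 CPM) and 19 in dKO (6.94 CPM), a ratio of 0.461 (0.245 to 0.846). Dkk3 in the stress-gene subset had 62 UMIs (37.1 CPM) and 27 UMIs (16.7 CPM), a ratio of 0.451 (0.276 to 0.719). In a finer clustering the stress-gene subset had 35 Dkk3 UMIs in each library, a ratio of 0.959 (0.583 to 1.58), so this call was lost in that subset. A Vit+ Clu+ subset of the same clustering, described below, was lower in Dkk3 (36 and 11 UMIs, ratio 0.318, 0.146 to 0.638). That clustering had 10 higher and 3 lower of 36 pairs, against 3.8% and 4.47% of all pairs, and its lower pairs included Sfrp4. At a coarser clustering, in the only subset named Cxcl5+ activated, the ratio of Dkk2 was 0.774 (0.627 to 0.954), inside the 1.5-fold line. Sfrp2 in the Acta2+ subset lay just inside the 1.5-fold line, at 217 and 144 CPM with a ratio of 0.667 (0.599 to 0.743). That difference rested on 1 Ctrl cell, which held 337 of 815 UMIs, and without the highest cell of each library the ratio was 1.06 (0.939 to 1.20). Sfrp4 was within 1.5-fold in all 6 subsets. In the Pi16+ Dpp4+ subset Sfrp1 (93.2 and 128 CPM, ratio 1.37) and Sfrp2 (170 and 247 CPM, ratio 1.45) were within it too, while Dkk3 had 0 and 15 UMIs.

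**Figure D3:**
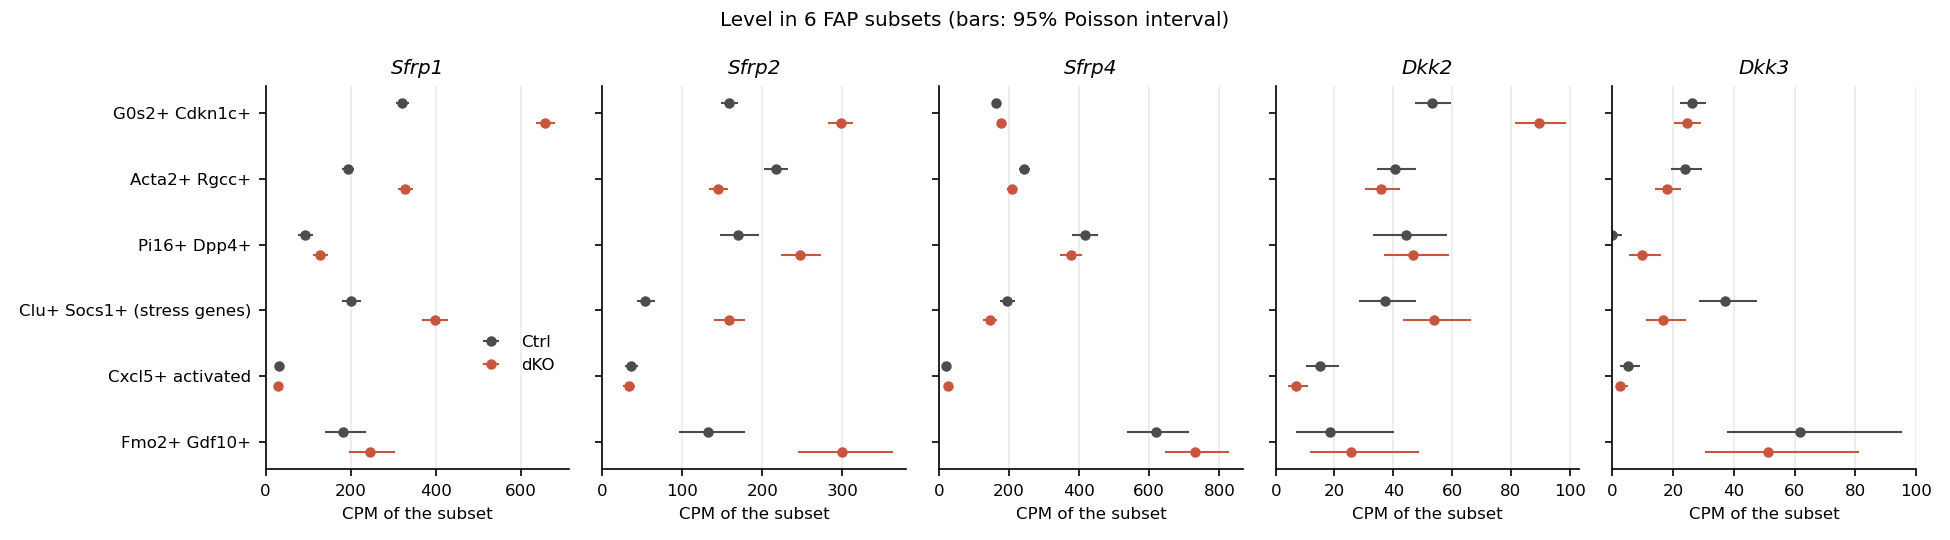
Levels of 5 members in the 6 FAP subsets with at least 20 cells in each library (CPM), Ctrl and dKO side by side with 95% counting intervals. Sfrp1 is highest in the G0s2+ Cdkn1c+ subset (321 and 658 CPM) and Sfrp4 in the Fmo2+ Gdf10+ subset (620.1 and 731 CPM), and all 5 are low in the Cxcl5+ activated subset.

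The subset shares differed between the libraries, and the G0s2+ subset made up 41.2% of the FAP-like cells in Ctrl against 33.5% in dKO. With the dKO levels weighted by the share of Ctrl UMIs in each subset, the log2 ratio of Sfrp1 was 0.91, against 0.75 unweighted, and that of Sfrp2 was 0.50 against 0.42. The finer clustering separated an Inmt+ Gdf10+ subset (140 Ctrl and 96 dKO cells), in which Sfrp1 reached its highest levels of any subset with 20 cells, at 571 and 862 CPM (ratio 1.51, 1.36 to 1.68). Sfrp2 was low in these Ctrl cells at 24.5 CPM and stood at 178 CPM in dKO, a ratio of 7.25 (4.82 to 11.3), or 5.91 (3.64 to 10.0) without the highest cell of each library. In a Vit+ Clu+ subset (51 and 46 cells), Sfrp4 stood at 158 and 72.6 CPM (ratio 0.459) and Dkk3 at 83.8 and 26.6 CPM (ratio 0.318).

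Detection of several members in 1 cell was counted after thinning. In all, 52.0% of Ctrl FAP-like cells and 42.5% of dKO FAP-like cells held no UMI of Sfrp1, Sfrp2, Sfrp4, Dkk2 or Dkk3, while 12.2% and 16.4% held 2 of these genes and 2.05% and 4.68% held 3. Sfrp1 and Sfrp2 were found together in 42 Ctrl cells, against 27.1 if they were detected independently, and in 95 dKO cells against 68.1. For Sfrp2 and Sfrp4 the counts were 33 against 20.6 in Ctrl and 54 against 34.1 in dKO. Sfrp1 and Sfrp4 met about as often as independence gives, in 55 Ctrl cells against 49.8 and in 76 dKO cells against 75.5. Cells of 1 library share their source, so these counts are descriptions.

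In cycling FAP-like cells (40 in Ctrl and 37 in dKO), Sfrp1 and Sfrp2 pointed the other way. Sfrp1 had 165 UMIs in Ctrl (129 CPM) and 80 in dKO (60.0 CPM), a ratio of 0.465 (0.351 to 0.611). Sfrp2 had 285 UMIs (223 CPM) and 128 UMIs (95.9 CPM), a ratio of 0.431 (0.347 to 0.533). Both differences drew on single Ctrl cells, 1 with 94 Sfrp1 UMIs (57.0% of the Ctrl total) and 1 with 146 Sfrp2 UMIs (51.2%). Without the highest cell of each library the ratio of Sfrp1 was 0.812 (0.567 to 1.16), with an interval that held 1, and that of Sfrp2 was 0.669 (0.512 to 0.873). Of 8607 genes in these cells, 6.56% were higher and 5.1% lower by the same rule. Sfrp4 (27 and 38 UMIs, 21.1 and 28.5 CPM) and Dkk2 (16 and 14 UMIs, 12.5 and 10.5 CPM) had intervals that held a ratio of 1.

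Tenocyte-like cells (145 in Ctrl and 91 in dKO) were led by Wif1 itself, which was kept out of the clustering, beside the tendon genes Chad, Kera and Fmod. Its 374 Ctrl UMIs gave 240.3 CPM (217 to 266) and its 219 dKO UMIs gave 243 CPM (212 to 278), a ratio of 1.01 (0.852 to 1.20). It was found in 41.4% and 36.3% of these cells. The tendon markers were present in both libraries, with Tnmd at 1798 and 2213 CPM and Chad at 1186 and 1227 CPM. The 9 tenocyte markers summed to 27533 and 29674 CPM with 7 higher in dKO, and the 9 FAP markers to 34702 and 40741 CPM with 8 higher. The 5 smooth muscle markers summed to 235 and 408 CPM with 3 higher, and the 7 MuSC markers to 718 and 365 CPM with none higher. The part of these markers in the members' differences was not tested. Over the whole libraries, which differ in depth and in their number of tenocyte-like cells, Wif1 had 382 and 222 UMIs. Dkk3 was level too, with 139 and 90 UMIs (89.3 and 99.9 CPM, ratio 1.12, 0.848 to 1.47). Sfrp2 had 199 UMIs (128 CPM) and 172 UMIs (191 CPM), a ratio of 1.49 (1.21 to 1.84) just inside the 1.5-fold line, but the difference did not hold when cells were thinned (log2 ratio -0.12) and grew with no doublets removed (1.29). Dkk2 had 29 UMIs in each library (18.6 and 32.2 CPM, ratio 1.73, 0.996 to 2.99). The log2 ratio of Dkk2 was 0.79 and stood at 2.05 with no doublets removed. With likely doublets removed, none of the members passed the rule here, against 3.3% of 8099 genes higher and 3.99% lower. A single cell held 29 of the 67 Sfrp4 UMIs of these cells in Ctrl and 28 of 29 in dKO.

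Sfrp5 was found mainly in cells with genes of the perineurium, the sheath around nerve bundles. The perineurial cell-like cluster (20 Ctrl and 13 dKO cells) was led by Sfrp5, which was kept out of the clustering, together with Lypd2, Stra6 and Moxd1. It also held cells with genes of keratinocytes, the epidermal cells of skin: 5 of the 20 Ctrl cells and 1 of the 13 dKO cells had at least 20 UMIs of Krt14, Krt5, Krt1, Krt10, Calm4, Sfn and Perp, while no other cell of the cluster had more than 10. Those 5 Ctrl cells held 50.5% of the UMIs of the Ctrl cluster, and the dKO cell held 17.2%, with no Sfrp5 UMI in any of them. Over the whole cluster Sfrp5 had 195 UMIs in Ctrl (1089 CPM) and 228 in dKO (2592 CPM), a ratio of 2.38 (1.96 to 2.90). With no doublets removed the log2 ratio was 0.54 against 1.25, which is inside the 1.5-fold line. Without the keratinocyte-gene cells the levels were 2201 CPM (1903 to 2533) and 3129 CPM (2736 to 3562), and the ratio was 1.42 (1.17 to 1.73), inside the 1.5-fold line. Sfrp5 was found in 12 of the remaining 15 Ctrl cells and 10 of the remaining 12 dKO cells, with a median of 5 UMIs in both libraries and at most 83 and 60. Of 2154 genes in the whole cluster, 17.0% were higher and 11.0% lower by the same rule, and without the keratinocyte-gene cells 12.6% and 7.58% of 1425. The 6 perineurial markers summed to 1821 CPM in Ctrl and 2421 CPM in dKO with 5 higher in dKO and none at 0, the 9 FAP markers to 12487 and 20107 CPM, the 5 smooth muscle markers to 22.3 and 579.7 CPM, the 9 MO/MP markers to 246 and 22.7 CPM and the 6 neutrophil markers to 61.4 and 3262 CPM, with Cxcr2, Csf3r and Ly6g at 0 in both libraries. Without the keratinocyte-gene cells the perineurial sums were 2878 and 2868 CPM, those of smooth muscle 33.9 and 699.8 CPM and those of neutrophils 22.6 and 13.7 CPM. Their part in the members' differences was not tested. Of the 3 members counted there, Sfrp1, Sfrp5 and Dkk3, the last 2 were higher over the whole cluster. Dkk3 had 8 and 15 UMIs (ratio 3.82, 1.52 to 10.4), and without the keratinocyte-gene cells its ratio had an interval that held 1 (ratio 2.28, 0.907 to 6.21).

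**Figure D4:**
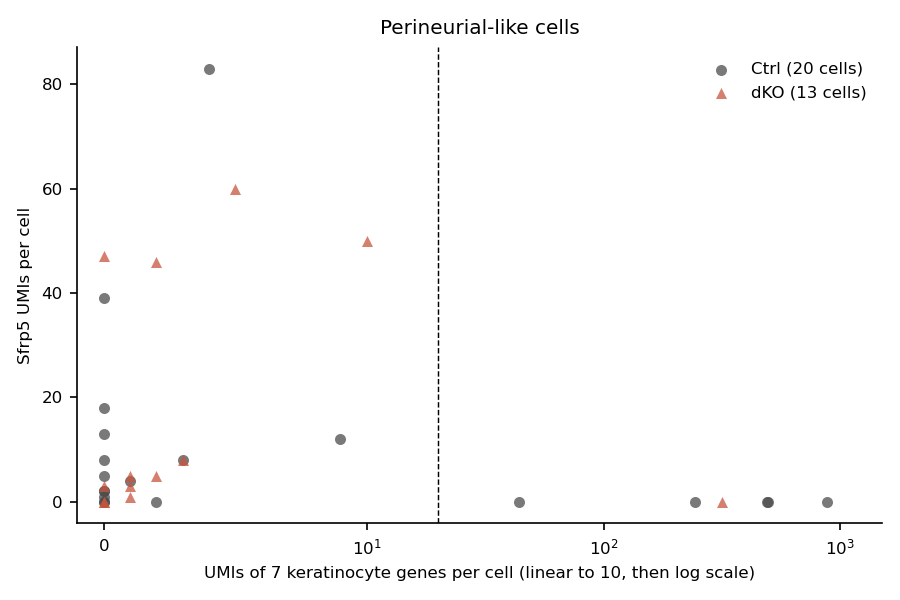
Sfrp5 UMIs and keratinocyte-gene UMIs in each perineurial cell-like cell, circles for Ctrl and triangles for dKO, with a dashed line at 20 keratinocyte-gene UMIs (horizontal axis linear up to 10, then logarithmic). The 5 Ctrl cells and 1 dKO cell with at least 20 keratinocyte-gene UMIs hold no Sfrp5, and Sfrp5 reaches 83 UMIs in a Ctrl cell and 60 in a dKO cell.

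Outside this cluster Sfrp5 was found in Schwann cell-like cells of Ctrl, which myelinate or ensheath axons, with 20 UMIs in 6 of 10 cells (644 CPM, 394 to 995). The dKO library held 1 Schwann cell-like cell, with no Sfrp5 UMI, so no comparison could be made. Over the whole libraries Sfrp5 had 222 UMIs in Ctrl and 230 in dKO. Sfrp1 was also present in the perineurial cell-like cells, with 18 and 12 UMIs (101 and 136 CPM, ratio 1.36, 0.596 to 2.98).

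The other genes of the Wnt pathway were taken from a list of 80, of which 51 had at least 20 UMIs in FAP-like cells. Of these, 3 were higher in dKO, 5 were lower and 43 did not pass the rule, with a median log2 ratio of -0.09, so 5.88% were higher and 9.80% lower against the 2.92% and 4.12% of all genes given above. Among other secreted regulators on the list, Cthrc1, a collagen triple helix protein that binds Wnt and Frizzled proteins, was lower at 256 and 165 CPM (ratio 0.647). Igfbp4, which can bind Frizzled and LRP6, was level at 796 and 877 CPM. Of 8 Wnt ligands with enough UMIs, Wnt9a was lower (134 and 62 UMIs, ratio 0.448) and Wnt10b higher (10 and 26 UMIs, ratio 2.52), while Wnt5a stood at 31.4 and 25.7 CPM and Wnt11 at 13.8 and 15.1 CPM. The ligand secretion genes Wls (118 and 96.5 CPM) and Porcn (6.02 and 4.91 CPM) did not pass the rule. Rspo3, an R-spondin that strengthens Wnt signalling, was higher with 125 and 247 UMIs (8.45 and 16.2 CPM, ratio 1.91). Rspo1 had 21 and 14 UMIs and did not pass the rule.

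Of all 12575 genes counted in FAP-like cells 11690 did not pass the rule, so a role group in which none passed is no result about its genes. Of 16 receptors and coreceptors, 15 did not pass the rule, including Ryk (123 and 111 CPM) and Lrp6 (105 and 111 CPM). Ptk7 was lower with 114 and 70 UMIs (ratio 0.594). Among 3 membrane feedback inhibitors, Znrf3, which removes Frizzled from the membrane, was lower with 58 and 33 UMIs (ratio 0.551). Tmem88 (18.7 and 22.6 CPM) and Apcdd1 (4.67 and 5.10 CPM) did not pass the rule. None of the 8 intracellular transducers passed the rule, among them Csnk1a1 (314 and 344 CPM) and Ctnnb1, which encodes beta-catenin (175 and 155 CPM). In the group of nuclear factors and targets, Ccn5 was higher (56.6 and 93.2 CPM, ratio 1.65) and its relative Ccn4 was lower (104 and 65.8 CPM, ratio 0.630), while Myc stood at 127 and 133 CPM and Tcf7l2, a partner of beta-catenin, at 120.1 and 99.3 CPM. Axin2, a general target of canonical Wnt signalling, had 16 and 8 UMIs in FAP-like cells, too few to tell a difference from counting error.

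**Figure D5:**
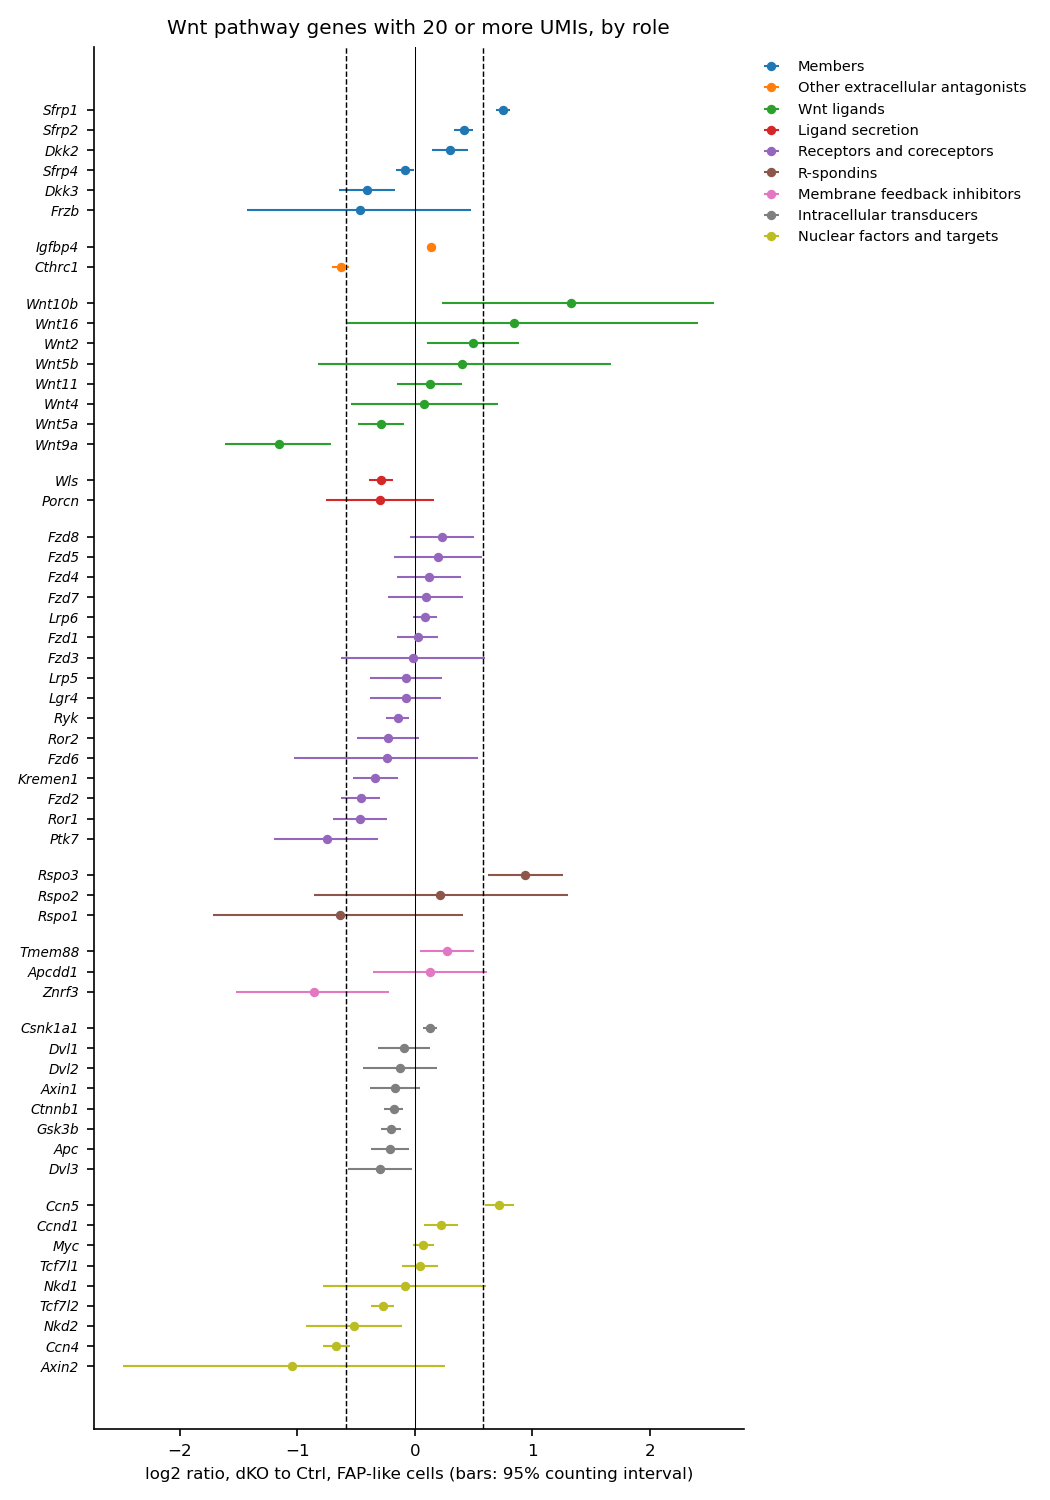
Log2 ratio of dKO to Ctrl in FAP-like cells for the members and 51 other Wnt pathway genes with at least 20 UMIs, grouped by role, with the 1.5-fold lines. Of the 51 other genes 3 were higher and 5 lower by the rule, and 43 did not pass it. A gene outside the lines whose interval held a ratio of 1 did not pass.

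The genes whose levels were most like a member's were found over 32 points, each a cell class or FAP subset in a library, by Pearson's r of log2 CPM among 11495 genes. These points share libraries and cells, so r is a description. Sult5a1 (r = 0.853), Dpep1 and Penk (both r = 0.834) followed Sfrp1. Sfrp2 was followed by Mmp3, a matrix metalloproteinase (r = 0.956), and by Gsc (r = 0.900) and Ccn5 (r = 0.888). Sfrp4 was followed by the matrix genes Spon2 (r = 0.889) and Col14a1 (r = 0.881) and by Cercam (r = 0.877). Wif1 was followed by Ucma and Gpha2 (both r = 0.986) and Col22a1 (r = 0.969). Nearest to Dkk2 were P4ha3 (r = 0.804), Tlr2 (r = 0.799) and Ctsh (r = 0.797). Nearest to Dkk3 were Abat (r = 0.820), Cys1 (r = 0.816) and Aff3 (r = 0.814). Those nearest to Sfrp5, Krt14 (r = 0.983), Calm4 (r = 0.978) and Krt1 (r = 0.973), were genes of the keratinocyte-gene cells, and without those cells they were Hcn4 (r = 0.880), Lgals7 (r = 0.832) and Crabp2 (r = 0.742). The cells left still held up to 9 keratinocyte-gene UMIs in Ctrl and 10 in dKO, and their part in this likeness was not tested.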

How the data were processed

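Single-cell RNA-seq counts of 2 libraries, Ctrl and dKO, were analysed. The authors deposited raw UMI counts per gene and cell barcode. Per the submitters' processing notes they used mm10, Seurat 4.3.0 and Cell Ranger 7.0.0 (the file header names Cell Ranger 3.0.2). The files hold 0 mitochondrially encoded genes, so the study's mitochondrial limit could not be applied. Cells with at least 500 genes were kept (4335 of 4527 in Ctrl and 3329 of 3483 in dKO), the limit in the study's methods. The study's cell numbers equal these, though it gives them after doublet removal and here they precede it. Another filter in its text, 200 genes and 1000 UMIs, left 4295 and 3306. Scrublet (scanpy 1.11.5) marked 8 and 21 cells by its own threshold, which was too few to have worked, so the highest 7.5% of scores were removed (325 and 250 cells).

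Cells were clustered with Seurat 5.3.0 (R 4.3.3) on 2000 variable genes, 40 dimensions and resolution 0.8, and FAP-like cells again with 30 dimensions at 0.4, without the members or other Wnt genes. Clusters were named "-like" from marker lists. Rebuilt names may differ from those of the study. UMIs were summed per class, subset and library and divided by the total (CPM), with exact Poisson intervals for CPM, Clopper-Pearson intervals for shares and exact conditional binomial intervals for ratios (Python 3.11.15, numpy 2.4.6, scipy 1.17.1). Levels of 0 were given a limit of 3 counts. The difference between the groups has no test, since each group is 1 library of 3 pooled mice.

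The members, the marker lists and the Wnt list were chosen with earlier results of these data known. The perineurial list holds Lypd2, Cldn1 and Krt19 for that reason. Named genes were all members, Wnt genes past 1.5-fold or the 2 highest of each role, the 3 genes most like each member with at least 100 UMIs in non-immune cells, class markers and Yy1. Axin2 was named outside this rule. Chosen after the clusters were seen were the split of mixed clusters at resolution 0.5, the tie-break between names, the limit on names of FAP subsets (a listed gene leads or at least 5 are enriched), and the values at the Ctrl subset shares, without the highest cell and without keratinocyte-gene cells.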

Additional observations from a re-analysis of the deposited data

Results flagged for a closer look

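In cycling FAP-like cells Sfrp1 was lower in dKO (log2 ratio -1.10, 165 and 80 UMIs), whereas in other FAP-like cells it was higher (log2 ratio 0.75, 3210 and 5585 UMIs). It was picked out because the library difference had opposite signs past 1.5-fold, and the difference between the classes was not tested. Without the cell with most UMIs in each library the cycling value was -0.30.

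Dkk2 was higher in dKO in the G0s2+ Cdkn1c+ FAP subset (log2 ratio 0.76, 300 and 432 UMIs) and lower in the Cxcl5+ activated subset (log2 ratio -1.12, 30 and 19 UMIs). In a coarser clustering the subset named Cxcl5+ activated had a Dkk2 ratio of 0.774, inside the 1.5-fold line. Dkk2 was picked out for the same reason, and the difference between the subsets was not tested.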

How the results depend on the processing

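All values here are log2 ratios of dKO to Ctrl in FAP-like cells or counts. Sfrp1 stayed past 1.5-fold in all 11 alternatives (0.68 to 0.91). It stood at 0.68 in cells gated by a Pdgfra UMI without Ptprc, Pecam1, Tnmd or Pax7, and at 0.91 at the Ctrl UMI shares of the subsets. Sfrp2 moved beyond counting error in 6 alternatives: 0.28 with no doublets removed, 0.087 with the Pdgfra gate, 0.68 thinned, 0.53 as the mean of the cells' own CPM, 0.50 at the Ctrl shares and 0.58 without the highest cells, against 0.42. Dkk2 stood at 0.069 with the Pdgfra gate and Sfrp4 at -0.0018 with at least 200 genes and 1000 UMIs. The causes were not tested. Dkk3 ranged from -0.55 to -0.30. With few UMIs, Frzb ranged from -0.70 to 0.06, changing sign as the mean of the cells' own CPM, and Wif1 from -3.37 to -0.07, within counting error. Of 18 pairs of a member and a class with 20 cells in each library (which leaves out perineurial cell-like cells), 1 was higher and 2 were lower in dKO. With no doublets removed 5 of 17 were higher and 1 lower (5.27% and 5.56% of all gene pairs), with median-ratio scaling 3 of 18 were higher (6.36%, and 3.97% lower), and thinned 2 of 10 were higher (4.2%). Lower subset pairs numbered 1 of 20 thinned (3.92%). At 2-fold, 1 of 51 other Wnt genes was higher and 1 lower (1.22% and 1.6% of 12575 genes). In all, 78 of 95 alternatives for the main results and 45 of 62 for the others stayed the same, and no called value changed sign. For a ratio, the same means inside the main counting interval, and for a count, within 1.5-fold of the main count. Median-ratio scaling shifted all ratios by 0.06. Sfrp5 had too few UMIs in FAP-like cells for a value, and FAP subsets without doublet removal were not run. No paired analysis was possible because each group is 1 library. Depth limits Frzb in all classes, and Sfrp5 outside nerve sheath cells.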

Other observations

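Outside the stromal classes, Dkk3 had 8 UMIs in Ctrl (7.81 CPM) and 5 in dKO (5.40 CPM) in dendritic cell-like cells. In T cell-like cells it had 2 UMIs (4.92 CPM, 0.596 to 17.8) and 5 UMIs (10.3 CPM, 3.35 to 24.1), with overlapping intervals. Dkk2 had 7 UMIs in Ctrl MuSC-like cells (3.10 CPM, 1.25 to 6.40), in which Sfrp2 had 5 (2.22 CPM). Sfrp1 had 7 UMIs in Ctrl smooth muscle-like cells (8.52 CPM) and 8 UMIs in 10 Ctrl endoneurial fibroblast-like cells.

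In 12 FAP-like cells with macrophage genes, 5 in Ctrl and 7 in dKO, 1 dKO cell held 40 of the 54 dKO Sfrp1 UMIs and 60 of the 62 dKO Sfrp2 UMIs. In a Cldn1+ Shisa3+ group of 9 Ctrl and 4 dKO FAP-like cells, Sfrp1 stood at 942 and 824 CPM.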
